A study of Homo sapiens with 12 samples.

Results

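Transcript levels of 9 transcription factors of the neural crest, SOX10, SOX9, SOX2, SOX4, SOX5, PAX3, TFAP2A, TFAP2B, and FOXD3, were followed in 2 melanoma cell lines exposed to the RAF inhibitor vemurafenib. The genes were taken by symbol from the 23273 genes listed for each line, and 9 of 9 were found. COLO858 and MMACSF are established human melanoma lines, each a single line and both carrying mutant BRAF. Cells of each line received either DMSO, the solvent of the drug, or 0.2 μM vemurafenib for 24 h or 48 h, with 2 libraries per group and 12 in all. No time is labelled for the DMSO controls, and 1 pair of them per line served both drug times, so the comparisons at 24 h and 48 h share their controls. Values are FPKM, read counts scaled by transcript length and by library, as the authors deposited them. Each line has a table of its own and a common scaling of the 2 tables is not stated, so levels set side by side across the lines were not tested.

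The neural crest is an embryonic cell population that gives rise to melanocytes, Schwann cells, and much of the facial skeleton. Its specification and the later choice of fate rely on a small circuit of transcription factors. TFAP2 and PAX3 proteins act early at the border of the neural plate, FOXD3 and the SoxE factors SOX9 and SOX10 specify the crest, and SOX10 with PAX3 then drives MITF, the regulator of the melanocyte lineage. The question addressed here is how this set of regulators stood in each line before and during RAF inhibition, and whether the lines differed in it.

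The labelled cell type was compared with marker genes. Under DMSO 8 melanocytic markers summed to 796 to 851 FPKM in COLO858, and after 24 h in drug to 4011 to 4412 FPKM. In MMACSF they summed to 10887 to 11176 FPKM under DMSO and to 15252 to 16536 FPKM after 24 h. A mean of 1 FPKM was reached by 6 of the 8 in COLO858 under DMSO, 7 at 24 h, and 6 at 48 h, and by 8 in each group of MMACSF. Markers of endothelial cells, leukocytes, and neurons (3 each) summed to at most 1.40 FPKM in any library. The 4 keratinocyte markers summed to 6.49 to 10.4 FPKM over the 12 libraries. The 4 epithelial markers moved with treatment in COLO858, from 62.8 and 72.2 FPKM under DMSO to at most 11.5 FPKM at 48 h, and the 4 fibroblast markers in the other direction, from 5.69 and 8.70 FPKM to 17.2 and 27.1 FPKM. In MMACSF the fibroblast markers went from 54.9 and 76.6 FPKM under DMSO to 19.1 and 27.8 FPKM at 48 h, and the epithelial ones from 57.9 and 58.0 FPKM to 50.1 and 50.8 FPKM. Their part in the results on the neural crest factors was not tested. Between 11679 and 11972 genes reached 1 FPKM in a library, and read depth is unknown.

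Promoter windows of 300 bases, 250 before and 50 after a RefSeq start, were found for 7 of the 9 genes in 8 windows, because TFAP2A has 2 starts. The 250 bases before the start are shown for TFAP2A and SOX4, the factors past the test threshold in both lines, and for FOXD3, whose window held the most matches. Coordinates are GRCh37, from an exact match of the RefSeq sequence to that genome, each is written 5′ to 3′ on the gene's strand, and capitals mark matches to the motifs named after them.
TFAP2A, upstream start, chr6:10419893-10420142, minus strand: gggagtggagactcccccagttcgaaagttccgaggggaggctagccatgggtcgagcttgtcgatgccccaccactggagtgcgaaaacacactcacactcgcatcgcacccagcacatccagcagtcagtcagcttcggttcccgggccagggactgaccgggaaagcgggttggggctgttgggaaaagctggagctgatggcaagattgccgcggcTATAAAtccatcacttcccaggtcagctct
TFAP2A, downstream start, chr6:10412625-10412874, minus strand: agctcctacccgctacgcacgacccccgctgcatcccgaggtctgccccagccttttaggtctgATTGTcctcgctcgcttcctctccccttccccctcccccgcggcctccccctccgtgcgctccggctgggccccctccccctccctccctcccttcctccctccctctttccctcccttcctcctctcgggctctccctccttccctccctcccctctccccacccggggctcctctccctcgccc
SOX4, chr6:21593732-21593981, plus strand: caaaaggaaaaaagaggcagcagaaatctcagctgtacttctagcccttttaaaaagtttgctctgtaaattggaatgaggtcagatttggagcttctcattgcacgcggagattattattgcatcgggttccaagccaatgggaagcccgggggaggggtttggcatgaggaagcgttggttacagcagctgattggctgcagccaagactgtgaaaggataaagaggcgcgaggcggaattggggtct
FOXD3, chr1:63787988-63788237, plus strand: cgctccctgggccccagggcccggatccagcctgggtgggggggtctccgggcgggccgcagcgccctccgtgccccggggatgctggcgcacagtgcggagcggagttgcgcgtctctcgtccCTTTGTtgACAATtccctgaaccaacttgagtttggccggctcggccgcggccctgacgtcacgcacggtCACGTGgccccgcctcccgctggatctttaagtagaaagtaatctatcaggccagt

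In GENCODE, TFAP2A spans chr6:10393419-10419892 with 7 exons in its canonical transcript, whereas SOX4 (chr6:21593982-21598850) and FOXD3 (chr1:63788238-63790799) have 1 exon each. Exons of antisense RNAs overlap those of TFAP2A (TFAP2A-AS1 by 438 and TFAP2A-AS2 by 941 bases), FOXD3 (FOXD3-AS1 by 618 bases), and SOX4 (an unnamed RNA by 168 bases), and without a stated strand setting their reads cannot be told apart from those of the factors. Motifs were searched on both strands. TATAAA was found 30 bases before the upstream start of TFAP2A, which lies at the 5′ end of the gene. The second TFAP2A start lies inside the gene, and its window held ATTGT, the reverse complement of the SOX motif ACAAT. No searched motif was found in the windows of SOX4 and PAX3. FOXD3 held ACAAT 118 bases before its start. It also held the SOX motif ACAAAG, on the other strand, 126 bases before the start, and the E-box CACGTG at 56 bases. In the remaining windows SOX2 held ACAAAG and the TFAP2 motif GCCNNNGGC, SOX5 held ACAAT at 2 places, and TFAP2B held ACAAT and TATAAA, both on the strand opposite to the gene. Of 34796 promoter windows of the same length, 27.4% held ACAAT, 16.1% ACAAAG, 23.2% GCCNNNGGC, 7.2% CACGTG, and 11.6% TATAAA. The AP-1 motif TGANTCA, present in 7.73% of windows, was found in 0 of the 8. A match of letters is a description and not a binding site.

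Of the 9 factors, 2 rose in COLO858 and 3 in MMACSF at both drug times, and 0 fell. TFAP2A and SOX4 rose in both lines, and PAX3 passed the threshold in MMACSF. The test was limma's, applied to log2(FPKM + 1) values, and a gene was called at a Benjamini-Hochberg adjusted p under 0.01 over all genes tested. Genes whose mean reached 1 FPKM in at least 1 group were tested, which left out SOX9 and TFAP2B in COLO858 and SOX2, TFAP2B, and FOXD3 in MMACSF. SOX9 entered the MMACSF test through its drug-treated groups alone. In COLO858 2 of 7 tested factors were called at 24 h, where 9.82% of all genes tested were called in either direction, and 2 of 7 at 48 h, where 9.47% were. In MMACSF 3 of 6 were called at 24 h against 5.83% of all genes, and 3 of 6 at 48 h against 8.83%. In COLO858 both drug libraries lay above both DMSO libraries for 5 of 7 tested factors at 24 h and 5 of 7 at 48 h, a pattern held by 34.1% and 29.9% of all genes tested. In MMACSF it held for 5 of 6 at 24 h and 6 of 6 at 48 h, against 34.0% and 35.7% of all genes. Both MMACSF counts include SOX9, whose place in them follows in part from the minimum, which its DMSO libraries did not reach. In bulk libraries a change in the number of cells that express a factor and in its RNA per cell cannot be told apart. The methods of the study give 2 replicate plates per condition and name no separate experiments, so p-values measure the spread between plates.

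**Figure D1:**
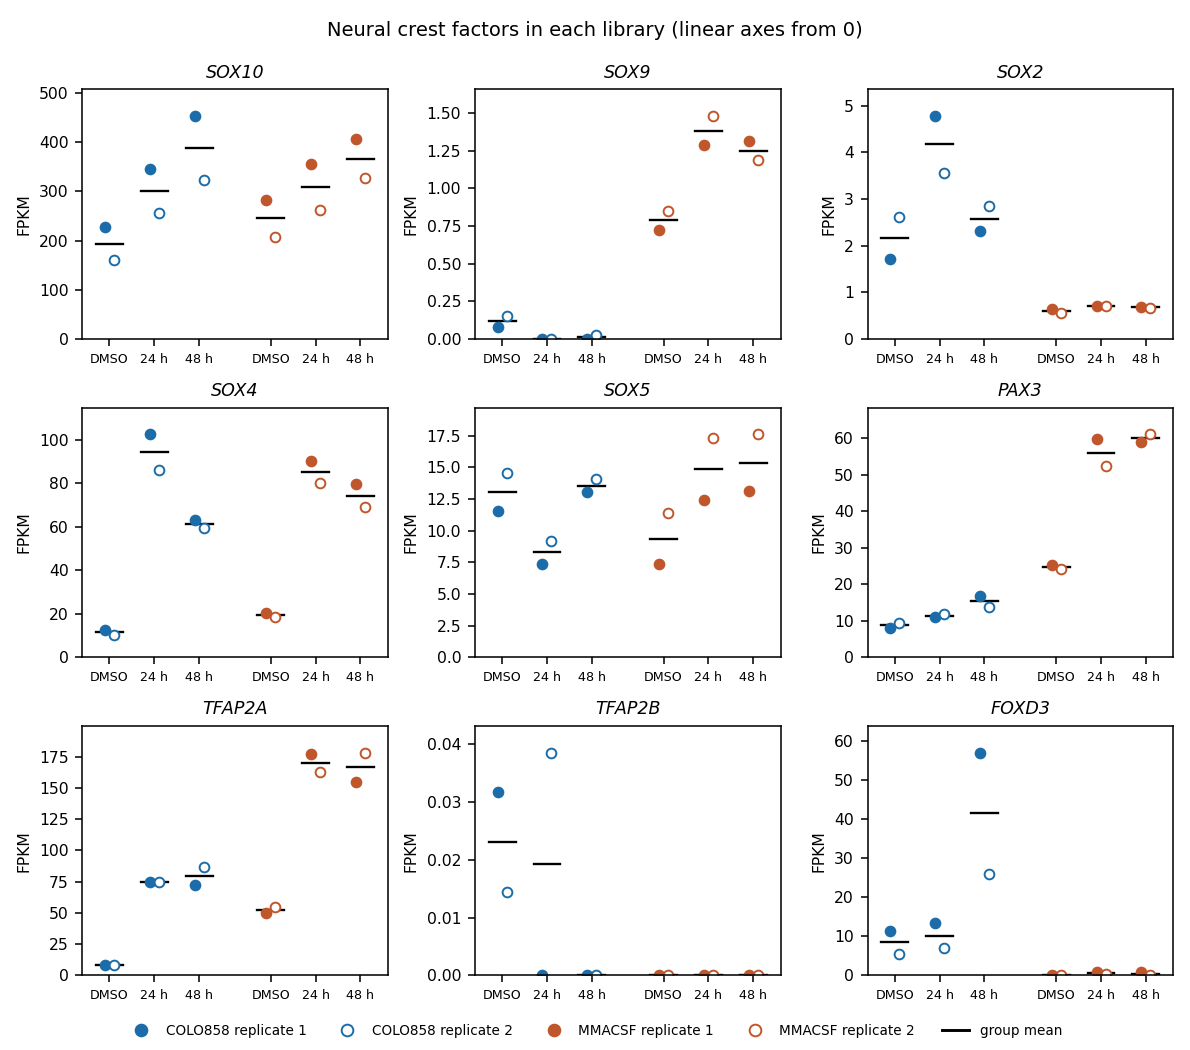
FPKM of each of the 9 factors (vertical axes, linear, from 0, scaled separately) under DMSO and after 24 h and 48 h in vemurafenib, in COLO858 (blue) and MMACSF (orange), with replicate 1 filled, replicate 2 open, and a bar at the mean of 2 libraries. TFAP2A and SOX4 in drug lie above DMSO in both lines without overlap, FOXD3 exceeds 1 FPKM in COLO858 but not in MMACSF, and TFAP2B stays below 0.04 FPKM in every library.

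TFAP2A, which encodes a DNA-binding protein that acts in the early neural crest and in melanocytes, had the largest estimated change of the 9 factors in COLO858. Its level there was 8.06 and 8.67 FPKM under DMSO, 74.7 and 74.7 FPKM at 24 h, and 72.6 and 86.8 FPKM at 48 h. The drug-treated libraries all lay far above the DMSO pair and overlapped each other between the times. On the log2 scale it rose by 3.02 ± 0.14 (SE) at 24 h and 3.10 ± 0.14 at 48 h, with adjusted p-values from limma of 0.000678 and 0.000513. In MMACSF TFAP2A was 49.9 and 55.0 FPKM under DMSO and reached 177 and 162 FPKM at 24 h and 155 and 178 FPKM at 48 h. Here too no drug library overlapped the DMSO pair, and the 2 times overlapped. The rise was 1.68 ± 0.13 on the log2 scale at 24 h and 1.65 ± 0.13 at 48 h, with adjusted p-values of 0.00215 and 0.00159 in limma. The MMACSF call at 24 h was lost without any one of the 6 libraries (adjusted p = 0.0112 to 0.0224 in limma), and that at 48 h without any one of the DMSO and 48 h libraries (0.0149 to 0.0203).

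Its paralog TFAP2B was close to absent from both tables. In COLO858 TFAP2B was 0.0317 and 0.0144 FPKM under DMSO, was listed at 0 and at 0.0384 FPKM at 24 h, and was listed at 0 in both libraries at 48 h. In MMACSF it was listed at 0 in 6 of 6 libraries. TFAP2C, another paralog, was the only one of the 14 other PAX, TFAP2, and FOXD genes on a list of relatives to pass the threshold in any comparison. It went from 30.5 and 29.0 FPKM under DMSO to 15.3 and 16.0 FPKM at 24 h in MMACSF, a log2 fold change of -0.88 (adjusted p = 0.0076 in limma), and to 23.1 and 22.6 FPKM at 48 h. The call was lost without any one of the 6 libraries (adjusted p = 0.0317 to 0.0548) and with only the groups compared in the fit (0.0273). In COLO858 TFAP2C was below 1 FPKM in every library and was not tested.

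SOX4, a SoxC factor expressed in many progenitor cells, rose in both lines. In COLO858 it was 12.7 and 10.2 FPKM under DMSO, 103 and 86.3 FPKM at 24 h, and 63.0 and 59.4 FPKM at 48 h. The 3 groups did not overlap, and the level at 48 h lay between those of DMSO and 24 h. The log2 fold change against DMSO was 2.94 ± 0.17 at 24 h and 2.33 ± 0.17 at 48 h (adjusted p = 0.000854 and 0.00135 in limma), and the difference of 48 h from 24 h, -0.61, did not pass the threshold (adjusted p = 0.115). In MMACSF SOX4 was 20.4 and 18.4 FPKM under DMSO, 90.1 and 80.1 FPKM at 24 h, and 79.7 and 69.1 FPKM at 48 h. The drug libraries again lay above DMSO in all 4 cases, by log2 fold changes of 2.08 ± 0.14 and 1.88 ± 0.14 (adjusted p = 0.00161 and 0.0013 in limma). In COLO858 the call at 24 h was lost without the 24 h replicate 1 (adjusted p = 0.0103 in limma), and that at 48 h without DMSO replicate 2 or either 48 h library (0.0125 to 0.0148). In MMACSF both calls were lost without any one of the 4 libraries compared (0.014 to 0.0192).

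PAX3, a paired-domain factor that maintains melanocyte precursors and acts with SOX10 on MITF, passed the threshold in MMACSF. It was 25.3 and 24.3 FPKM there under DMSO, 59.6 and 52.4 FPKM at 24 h, and 58.9 and 61.0 FPKM at 48 h. On the log2 scale it rose by 1.14 ± 0.12 at 24 h and 1.24 ± 0.12 at 48 h (adjusted p = 0.00462 and 0.00284 in limma), and no drug library overlapped DMSO. The call at 24 h was lost without any one of the 6 libraries (adjusted p = 0.0225 to 0.0401) and with only the groups compared in the fit (0.0167), and that at 48 h without any one of the DMSO and 48 h libraries (0.025 to 0.0335). In COLO858 PAX3 was 7.98 and 9.48 FPKM under DMSO, 11.1 and 11.7 FPKM at 24 h, and 16.8 and 13.9 FPKM at 48 h. All 4 drug libraries there lay above the DMSO pair as well. The log2 fold changes of 0.35 ± 0.17 and 0.75 ± 0.17 did not pass (adjusted p = 0.177 and 0.029), and the 95% interval at 48 h ran from 0.33 to 1.16.

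SOX10, the SoxE factor required for melanocytes and for peripheral glia, had the highest level of the 9 factors in every group of both lines. In COLO858 it was 227 and 160 FPKM under DMSO, 346 and 257 FPKM at 24 h, and 453 and 323 FPKM at 48 h. In MMACSF it was 283 and 208 FPKM under DMSO, 356 and 262 FPKM at 24 h, and 407 and 327 FPKM at 48 h. Replicates differed widely, with replicate 1 the higher in each group of both lines. This difference is part of the spread in the test, and a fit with a replicate block is given at the end. The DMSO and 24 h libraries of MMACSF overlapped, while the 48 h libraries lay above DMSO in both lines. The log2 fold changes in COLO858, 0.65 ± 0.27 at 24 h and 1.00 ± 0.27 at 48 h, did not pass the threshold (adjusted p = 0.142 and 0.0491 in limma), nor did those in MMACSF, 0.33 ± 0.23 and 0.59 ± 0.23 (adjusted p = 0.356 and 0.125). For COLO858 the 95% interval at 48 h reached from 0.32 to 1.69, and for MMACSF from 0.01 to 1.17. By rank of the mean level among all listed genes, SOX10 of COLO858 moved from place 478 under DMSO to 206 at 48 h, and that of MMACSF from 346 to 204. In the GENCODE annotation exons of SOX10 and of POLR2F, on the opposite strand, share 260 bases, and whether counting used strand is not stated. POLR2F, which encodes a subunit of RNA polymerases, was 61.1 and 58.2 FPKM under DMSO in COLO858 and 27.1 and 28.9 FPKM after 48 h.

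FOXD3, a forkhead factor of premigratory crest cells that is known to hold back the melanocyte fate, passed the 1 FPKM minimum in COLO858 alone. In COLO858 it was 11.5 and 5.51 FPKM under DMSO, 13.4 and 6.94 FPKM at 24 h, and 57.0 and 25.9 FPKM at 48 h. The 24 h libraries overlapped the DMSO pair, and both 48 h libraries lay above all 4 others. With the spread between replicates, the log2 fold change of 2.13 ± 0.53 at 48 h did not pass the threshold (adjusted p = 0.0393 in limma, 95% interval 0.79 to 3.47). At 24 h the value was 0.25 ± 0.53 (adjusted p = 0.762). In MMACSF FOXD3 was 0.140 and 0.0921 FPKM under DMSO, 0.837 and 0.370 FPKM at 24 h, and 0.793 and 0.128 FPKM at 48 h.

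SOX5, SOX2, and SOX9 were not called in either line. SOX5, a SoxD factor that can counter SOX10 on melanocytic genes, was 11.5 and 14.5 FPKM under DMSO in COLO858, 7.38 and 9.21 FPKM at 24 h, and 13.0 and 14.1 FPKM at 48 h. The 24 h libraries alone fell outside the DMSO range, at a log2 fold change of -0.59 ± 0.18 (adjusted p = 0.0688 in limma). In MMACSF SOX5 was 7.36 and 11.4 FPKM under DMSO, 12.4 and 17.3 FPKM at 24 h, and 13.1 and 17.6 FPKM at 48 h, with all drug libraries above the DMSO pair. The log2 fold changes of 0.63 ± 0.28 and 0.67 ± 0.28 did not pass (adjusted p = 0.169 and 0.135).

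SOX2, the SoxB factor of neural progenitors, was 1.71 and 2.61 FPKM under DMSO in COLO858, 4.78 and 3.57 FPKM at 24 h, and 2.30 and 2.84 FPKM at 48 h. The 24 h libraries lay above DMSO and the 48 h libraries overlapped it, with log2 fold changes of 0.72 ± 0.22 (adjusted p = 0.0667 in limma) and 0.19 ± 0.22 (adjusted p = 0.569). In MMACSF SOX2 stayed between 0.558 and 0.711 FPKM in 6 libraries. SOX9, which is the SoxE factor of cartilage and an alternative to SOX10 in many crest derivatives, passed the minimum in MMACSF alone. In MMACSF SOX9 was 0.721 and 0.852 FPKM under DMSO, 1.28 and 1.48 FPKM at 24 h, and 1.31 and 1.18 FPKM at 48 h, with log2 fold changes of 0.41 ± 0.15 and 0.33 ± 0.15 that did not pass (adjusted p = 0.116 and 0.171). In COLO858 SOX9 was 0.0818 and 0.151 FPKM under DMSO and was listed at 0 in 3 of the 4 drug libraries, with 0.0234 FPKM in the other.

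**Figure D2:**
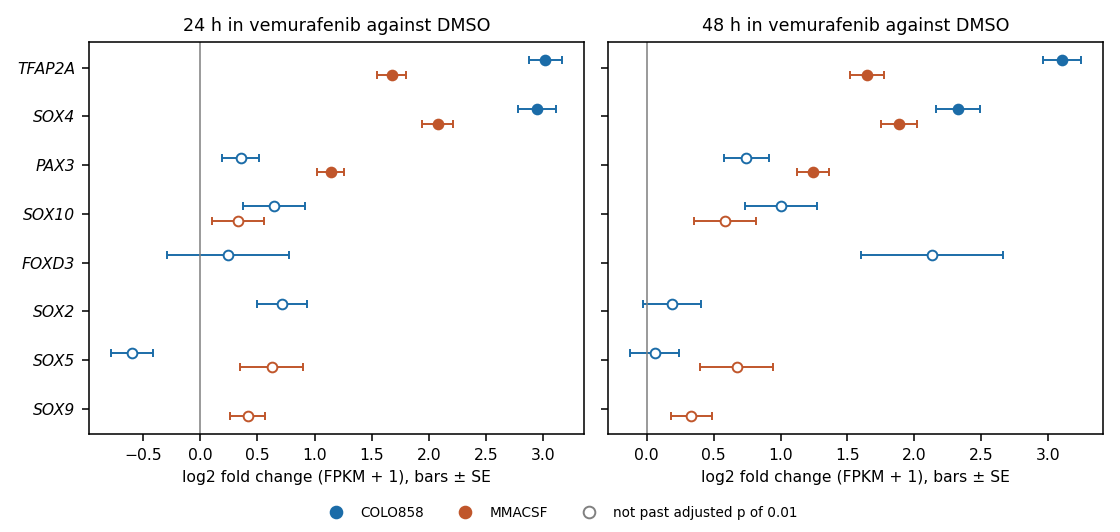
Log2 fold change of FPKM + 1 against DMSO (horizontal axis, with SE) for the 8 factors tested in at least 1 line, at 24 h (left) and 48 h (right), in COLO858 (blue) and MMACSF (orange), with filled points past an adjusted p of 0.01. TFAP2A lies farthest to the right in COLO858, at 3.02 and 3.10, and the FOXD3 value of 2.13 at 48 h has the widest error.

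The order of the factors by FPKM, a scale that corrects for transcript length, changed with treatment in COLO858. Under DMSO SOX10 led, followed by SOX5, SOX4, PAX3, FOXD3, TFAP2A, SOX2, SOX9, and TFAP2B. SOX5 and SOX4 overlapped there, as did PAX3, FOXD3, and TFAP2A. At 24 h SOX4 and TFAP2A stood next after SOX10, ahead of PAX3, FOXD3, and SOX5, of which neighbours overlapped, and at 48 h the order was SOX10, TFAP2A, SOX4, FOXD3, PAX3, SOX5, SOX2. The neighbours PAX3 and SOX5 overlapped at 48 h, and the others down to SOX2 did not. In MMACSF TFAP2A was second to SOX10 in all 3 groups, PAX3 and SOX4 exchanged places between DMSO and drug, and SOX5, SOX9, SOX2, FOXD3, and TFAP2B followed in that order. The libraries of SOX2 and FOXD3 overlapped at 24 h and 48 h. COLO858 had 3 factors at a mean of 10 FPKM or more under DMSO, 5 at 24 h, and 6 at 48 h, and MMACSF had 4, 5, and 5. The mean levels of the 9 factors summed to 246, 505, and 602 FPKM in COLO858 and to 353, 637, and 686 FPKM in MMACSF.

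Between 24 h and 48 h in drug, 0 of 7 tested factors were called in COLO858, where 1.38% of all genes tested were, and 0 of 6 in MMACSF, where 0.222% were. An unadjusted p under 0.05 in limma was found for 3 of 7 factors in COLO858, against 20.1% of all genes tested, and for 0 of 6 in MMACSF, against 6.98%. The 3 were FOXD3, with a log2 difference of 1.89 (adjusted p = 0.123), SOX5, with 0.65 (adjusted p = 0.123), and SOX4, with -0.61. For TFAP2A the values were 0.09 in COLO858 and -0.03 in MMACSF.

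Differences between the lines were tested on within-line changes. In an interaction model over the 12 libraries, the change of 1 of 8 tested factors differed between the lines at 24 h, where 3.71% of all genes tested were called, and of 1 of 8 at 48 h, where 7.48% were. This was TFAP2A at both times. Its log2 change was greater in COLO858 than in MMACSF by 1.34 ± 0.17 at 24 h (adjusted p = 0.0028 in limma) and by 1.46 ± 0.17 at 48 h (adjusted p = 0.000982). In the separate tables the mean levels of MMACSF stood beside those of COLO858 at 52.5 against 8.36 FPKM under DMSO and 167 against 79.7 FPKM at 48 h. The call at 24 h was lost without any one of the 4 DMSO libraries, either 24 h library of COLO858, or the 24 h replicate 2 of MMACSF (adjusted p = 0.0105 to 0.0145), whereas that at 48 h was kept without each library in turn. SOX4 changed more in COLO858 by 0.86 at 24 h (adjusted p = 0.0375) and 0.44 at 48 h (adjusted p = 0.211), values that did not pass. PAX3 differed in the other direction, by -0.79 (adjusted p = 0.0338) and -0.50 (adjusted p = 0.118), and did not pass either. For SOX5 the difference at 24 h was -1.22 ± 0.35 (adjusted p = 0.0725). FOXD3, SOX2, and SOX9 entered this model through 1 line, and the constant added to FPKM sets much of their value in the line where they were low. The difference for FOXD3 at 48 h was 1.78 with 1 FPKM added and 1.19 with 0.1 FPKM added (adjusted p = 0.121 and 0.54), and at 24 h -0.26 and -1.35 (adjusted p = 0.901 and 0.553), so it does not show whether its change differed between the lines. For SOX10 it was 0.31 at 24 h and 0.41 at 48 h, with 95% intervals of -0.58 to 1.21 and -0.48 to 1.31.

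Replicates 1 and 2 differed in the same direction in every group for several factors. Replicate 1 was higher than replicate 2 in 3 of 3 groups of both lines for SOX10, by ratios of 1.35 to 1.42 in COLO858 and 1.24 to 1.36 in MMACSF. FOXD3 had ratios of 1.92 to 2.20 in COLO858 and 1.53 to 6.19 in MMACSF, the latter at levels below 1 FPKM. SOX4 was likewise higher in replicate 1, by ratios of 1.06 to 1.25, and SOX5 was lower in it, with ratios of 0.79 to 0.93 in COLO858 and 0.65 to 0.74 in MMACSF. TFAP2A was lower in replicate 1 in 3 of 3 groups of COLO858, with ratios of 0.836 to 0.999, and showed no such order in MMACSF. PAX3 showed none in either line. SOX2 was higher in replicate 1 in 3 of 3 groups of MMACSF, by ratios of 1.01 to 1.14 at levels below 1 FPKM. Among all genes tested, 7.68% in COLO858 and 5.11% in MMACSF were at least 1.3 times higher in replicate 1 in all 3 groups, and 12.59% and 6.22% in replicate 2. The spread that entered the tests of SOX10, FOXD3, and SOX5 holds this difference.

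**Figure D3:**
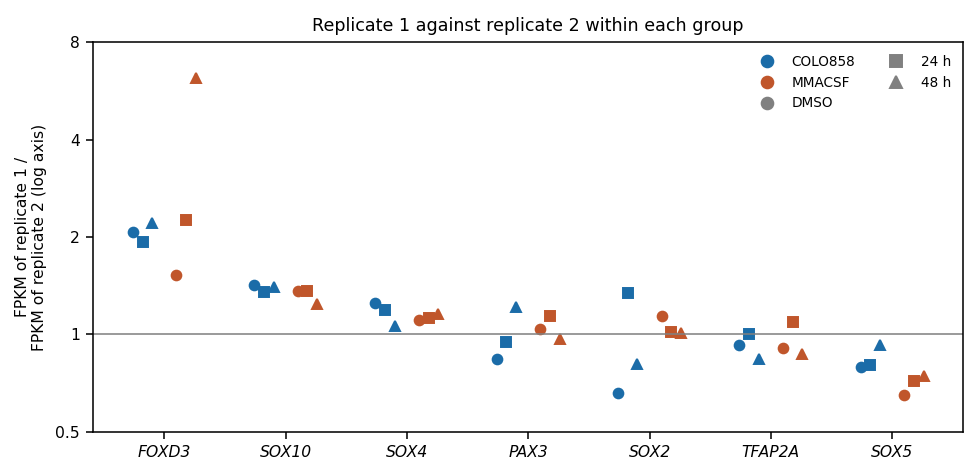
Ratio of replicate 1 to replicate 2 in FPKM (vertical axis, log scale) for 7 factors, in COLO858 (blue) and MMACSF (orange), under DMSO (circles) and at 24 h (squares) and 48 h (triangles). FOXD3, SOX10, and SOX4 lie above 1 in all 6 groups, and SOX5 lies below 1 in all 6.

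Among 14 other SOX genes, 6 reached the minimum in each line, and 1 rose and 1 fell in COLO858 at both times. Of all genes tested there, 4.11% rose and 5.71% fell at 24 h, and 4.74% rose and 4.73% fell at 48 h. SOX13, a SoxD factor like SOX5, was 2.73 and 1.78 FPKM under DMSO and 15.8 and 12.5 FPKM at 48 h in COLO858, and 24.3 and 21.4 FPKM and 24.1 and 23.5 FPKM in MMACSF. Its log2 fold change at 48 h was 2.22 ± 0.21 in COLO858 (adjusted p = 0.00304 in limma) and 0.06 in MMACSF, and the difference of 2.17 between the lines passed the threshold (adjusted p = 0.00094). The call of SOX13 in COLO858 at 48 h was lost without any one library of that line, at log2 fold changes of 2.01 to 2.43. SOX11, a SoxC factor like SOX4, went from 2.86 and 3.39 FPKM under DMSO in COLO858 to 0.308 and 0.411 FPKM after 48 h, where it fell by 1.60 ± 0.14 on the log2 scale (adjusted p = 0.0026 in limma). Of the SoxC factors, SOX4 thus rose and SOX11 fell in COLO858. The SOX11 mean in drug lay below 1 FPKM, so it entered the test through its DMSO libraries alone, which favours a fall. Its call at 48 h was lost without 4 of the 6 libraries in turn, and the 6 log2 fold changes ran from -1.69 to -1.51. In MMACSF 0 of the 6 were called, beside 5.83% of all genes at 24 h and 8.83% at 48 h, and SOX11 was at or below 0.112 FPKM.

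Of 28 further transcription factors of the neural crest, 22 were tested in COLO858 and 20 in MMACSF. In COLO858 7 rose and 2 fell at 24 h, and 7 rose and 4 fell at 48 h, with median log2 fold changes of 0.44 and 0.89 against 0.06 and -0.01 over all genes. In MMACSF 3 rose and 2 fell at 24 h, and 2 rose and 3 fell at 48 h, with medians of 0.30 and 0.17 against 0.07 and 0.06. Over all genes tested in COLO858, 4.11% rose and 5.71% fell at 24 h, and 4.74% rose and 4.73% fell at 48 h. The shares in MMACSF were 2.22% and 3.6% at 24 h, and 3.42% and 5.41% at 48 h. DLX5, a homeobox factor of the facial skeleton, had the largest rise at 48 h in both lines, from 2.16 and 1.45 to 47.7 and 39.3 FPKM in COLO858 and from 8.45 and 6.82 to 29.8 and 22.4 FPKM in MMACSF. The log2 fold changes were 3.99 (adjusted p = 0.000898 in limma) and 1.64 (adjusted p = 0.00957). RXRG, a retinoid receptor, rose in COLO858 by 2.78 on the log2 scale (adjusted p = 0.00118), and ZEB2, a zinc finger repressor of epithelial genes, rose in MMACSF by 1.41 (adjusted p = 0.00883) and in COLO858 by 2.35 (adjusted p = 0.00281). SNAI1, also a repressor of epithelial genes, fell by 2.44 in COLO858 (adjusted p = 0.00115) and by 1.91 in MMACSF (adjusted p = 0.00201). ZIC2 fell by 1.82 in COLO858 (adjusted p = 0.0085) and ID1 by 1.91 in MMACSF (adjusted p = 0.00797). The calls of DLX5, ZEB2, and ID1 in MMACSF and of ZIC2 in COLO858 were lost without any one library of their line and under some other settings. That of ZEB2 in COLO858 was also lost without any one library of its line, at log2 fold changes of 2.14 to 2.57. MITF was 56.2 and 79.2 FPKM under DMSO and 57.0 and 77.6 FPKM at 48 h in COLO858, and 174 and 244 FPKM and 209 and 268 FPKM in MMACSF. None of its changes passed the threshold.

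Of 24 genes of melanocytes and glia that are textbook targets of SOX10, 21 were tested in each line. In COLO858 11 rose and 1 fell at 24 h, and 14 rose and 1 fell at 48 h, with median log2 fold changes of 1.13 and 1.92, beside the medians over all genes given above. In MMACSF 5 rose and 1 fell at 24 h, and 8 rose and 2 fell at 48 h, with medians of 0.70 and 0.87. The shares of all genes that rose and fell in each line are those given for the crest factors. PMP2, a myelin protein, was 0.689 and 1.17 FPKM under DMSO and 25.8 and 48.1 FPKM at 48 h in COLO858. Its DMSO mean in COLO858 lay below 1 FPKM, so PMP2 entered the test of that line through drug-treated libraries alone. It rose there by 4.25 on the log2 scale (adjusted p = 0.00196 in limma), and the endothelin receptor EDNRB by 3.91 in COLO858 and 2.11 in MMACSF (adjusted p = 0.000592 and 0.00204). GJB1, the gap junction protein of Schwann cells, fell by 4.79 in COLO858 and by 2.26 in MMACSF (adjusted p = 0.000415 and 0.00169), where 14 and 8 genes of the list rose. NES, an intermediate filament of progenitor cells, fell by 1.22 in MMACSF (adjusted p = 0.00393). In COLO858 NES went from 123 and 114 FPKM under DMSO to 68.9 and 72.7 FPKM at 24 h and 246 and 236 FPKM at 48 h, where it rose by 1.02 (adjusted p = 0.0046). The calls of NES at 48 h in both lines were lost without any one library of the line. The log2 fold changes were then 0.967 to 1.07 in COLO858 and -1.33 to -1.11 in MMACSF. NGFR, a neurotrophin receptor of neural crest cells, was 2.89 and 2.82 FPKM under DMSO and 49.9 and 39.8 FPKM at 48 h in COLO858, where its log2 fold change was 3.56 (adjusted p = 0.000666). In MMACSF it was 3.86 and 2.35 FPKM and 0.861 and 0.594 FPKM, a value of -1.23 that did not pass (adjusted p = 0.0177).

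**Figure D4:**
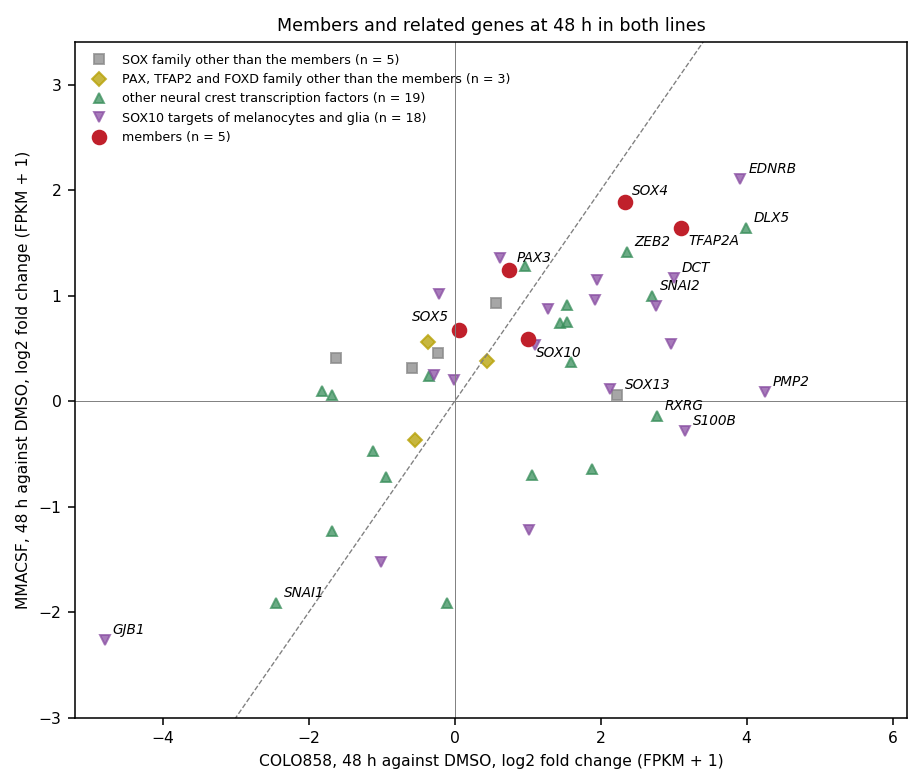
Log2 fold change of FPKM + 1 at 48 h against DMSO in COLO858 (horizontal axis) and MMACSF (vertical axis) for the 5 factors tested in both lines (red) and the genes of 4 lists of relatives, crest factors, and SOX10 targets, with a dashed line where both lines changed equally. SOX4 and TFAP2A lie in the upper right, SOX10 and PAX3 nearer the origin, PMP2 to the right near the horizontal axis, and GJB1 at the lower left end.

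The genes most like the called factors were sought by distance between the 4 log2 fold changes against DMSO over 11700 genes tested in both lines. Among those near SOX4 were LRRTM4, at a distance of 0.59, and MXI1, at 0.63. Nearest to PAX3 was SPATA6 at 0.14, followed by C3orf71 and NUDT18. For TFAP2A the nearest were STK32A at 0.51, ZNF536 at 0.70, and DCT, a melanin enzyme, at 0.72.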

How the data were processed

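RNA was measured by RNA-seq in 12 libraries, grouped by their labels. Per the submitters' processing notes and the methods of the study, the authors aligned single 50-base reads of stranded mRNA libraries to hg19 with TopHat and obtained FPKM with Cuffdiff, and these deposited FPKM, in 1 table per line, were used as they are. TopHat ran at its defaults. Annotation, versions, and the settings of Cuffdiff for strand and for reads shared by paralogs are not given in the sources used here. Read depth cannot be recovered from FPKM, so no counting error is given and a value of 0 is only listed at 0. All 12 columns were used.

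Each line was fitted with limma 3.58.1 in R 4.3.3 on log2(FPKM + 1), with 3 groups and a mean-variance trend. A gene was tested where at least 1 group had a mean of 1 FPKM, and p-values are two-sided, adjusted by Benjamini-Hochberg with a threshold of 0.01. Differences between the lines came from a 6-group interaction model. Fold changes are on the log2(FPKM + 1) scale and understate those of low genes. The procedure was tested on simulated data, where 200 genes per comparison were given a log2 change of 2. It called 98, 91, and 92 of them in COLO858 (24 h, 48 h, and 48 h against 24 h) and 124, 119, and 119 in MMACSF. For the difference between lines it called 122 at 24 h and 108 at 48 h. False calls numbered 0 to 9 per comparison. A factor that did not pass is thus not shown to be unchanged.

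The 9 genes and all lists were chosen with earlier results of these data known. Named from each list are the called genes with the 2 greatest rises and falls per line at 48 h, MITF and NGFR, the 3 nearest genes of each called factor, and relatives that share exons or paralogy with a factor (TFAP2C, POLR2F, chosen after their values were seen). Some genes that this rule would name are not reported here, and counts over the lists include them. Gene positions are from GENCODE v44 lifted to GRCh37, and promoters from RefSeq on GRCh38.p14.

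Alternatives were 0.1 FPKM added, no minimum or one of 10 FPKM, median-ratio rescaling, no trend, only the groups compared, a replicate block, and leaving out each library. All values were computed in Python 3.11.15 and R.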

Additional observations from a re-analysis of the deposited data

Results flagged for a closer look

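Of the factors, TFAP2A had a change that differed between the lines in a test of the interaction. Its log2 change was greater in COLO858 by 1.34 at 24 h and by 1.46 at 48 h (adjusted p = 0.0028 and 0.000982 in limma), with all 4 drug libraries above the DMSO pair in each line.

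Among the named genes of the lists, the same test gave differences between the lines, COLO858 minus MMACSF on the log2 scale, past an adjusted p of 0.01 in limma. For SOX13 they were 1.85 at 24 h and 2.17 at 48 h, and for SOX11, which was at or below 0.112 FPKM in MMACSF, -1.68 and -1.64. SOX11 reached the minimum in COLO858 alone, and the added constant sets much of its value in MMACSF. With 0.1 FPKM added its differences were -3.25 and -3.09, so they do not show how far its change differed between the lines. For RXRG they were 1.71 at 24 h and 2.91 at 48 h, and for DLX5 2.35 at 48 h. For EDNRB they were 2.25 at 24 h and 1.81 at 48 h. At 48 h the differences were 4.16 for PMP2, 4.79 for NGFR, 2.24 for NES, and -2.53 for GJB1. With 0.1 FPKM added they were 4.99, 5.85, 2.3, and -4.08, each past the threshold (adjusted p of up to 0.00105 in limma). The sizes for PMP2, NGFR, and GJB1 thus depend in part on the added constant. Of the differences at 24 h, that of SOX13 was lost without 9 of the 12 libraries in turn (adjusted p of up to 0.0187), TFAP2A without 7 (0.0145), RXRG without 6 (0.0176), and EDNRB without 3 (0.0121). At 48 h DLX5 was lost without 6 (0.017) and EDNRB without 4 (0.0165), and the other differences named were kept without each of the 12 in turn. With only the groups compared, SOX13 (adjusted p = 0.0169) and RXRG (0.0163) at 24 h and EDNRB (0.013) at 48 h were lost, and with 0.1 FPKM added SOX11 at 24 h (0.0108). With 2 libraries per group, no group could be searched for an outlying library.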

How the results depend on the processing

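Of 801 values of the factors under alternatives, 731 kept their direction and side of the threshold, 40 lost a call, 18 gained one, and 12 changed sign. TFAP2A in COLO858 held under every alternative tried (log2 2.96 to 3.23), as did its difference between the lines at 48 h (1.33 to 1.58). PAX3 in MMACSF at 24 h was lost when only the groups compared were fitted (adjusted p = 0.0167).

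Without single libraries, called factors numbered 1 to 2 in COLO858 at either time, from 0 to 1 at 24 h and 0 to 3 at 48 h in MMACSF, and from 0 to 1 for the difference between lines at 24 h. The libraries concerned are named beside the results. The sign changes were all of uncalled values in fits without 1 library. Without single libraries FOXD3 at 24 h in COLO858 ranged from -0.222 to 0.714 (also -0.181), and at 48 h SOX2 ranged from -0.0183 to 0.393 and SOX5 from -0.0964 to 0.216. For 48 h against 24 h, TFAP2A in COLO858 ranged from -0.0407 to 0.214, SOX5 in MMACSF from -0.179 to 0.272 (also -0.154), and TFAP2A in MMACSF from -0.131 to 0.0703 (also 0.0319). For the difference between lines, FOXD3 at 24 h ranged from -0.729 to 0.207 (also 0.166) and SOX2 at 48 h from -0.0875 to 0.323. Of 15 calls at 48 h of genes named from the lists, 13 were lost without some single library (adjusted p of up to 0.0649) and 2 were kept, those of DLX5 and GJB1 in COLO858, and 0 changed sign. Other settings ended those of DLX5 in MMACSF in 4 of 7 (adjusted p of up to 0.015), ZEB2 in MMACSF in 3 of 7 (0.015), ZIC2 in COLO858 in 3 of 6 (0.0145), ID1 in MMACSF in 2 of 6 (0.0134), and NES in MMACSF in 1 of 7 (0.0103). Calls among the SOX10 targets at 48 h went from 15 to between 7 and 10 in COLO858 and from 10 to between 1 and 4 in MMACSF, and those of the other crest factors from 11 to between 1 and 4 and from 5 to at most 1.

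The labels give replicates the same numbers across groups, with 2 pairs per comparison and no statement of what they pair. Deviations of same-numbered libraries correlated at 0.196 to 0.211 across genes in COLO858 and 0.0628 to 0.113 in MMACSF. With the replicate block, called factors in COLO858 numbered 4 of 7 at 24 h, 5 of 7 at 48 h, and 4 of 7 between the times. Of the 12696 genes tested there, 5719, 5549, and 2280 were called. In MMACSF they numbered 4 of 6 at 24 h and 5 of 6 at 48 h, beside 3284 and 3790 of 12599 genes. For the difference between lines they numbered 3 of 8 at 24 h and 5 of 8 at 48 h, beside 2396 and 3434 of 13595 genes. The block thus raised calls over all genes as well as among the factors. In COLO858 the block added SOX10 and SOX5 at 24 h, and SOX10, PAX3, and FOXD3 at 48 h. In MMACSF it added SOX5 at 24 h, and SOX10 and SOX5 at 48 h.

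Over all genes the counts called moved by over 1.5 times in some settings, from 1247, 1202, 175, 734, and 1113 (24 h, 48 h, and 48 h against 24 h in COLO858, then 24 h and 48 h in MMACSF). With the block they were 5719, 5549, 2280, 3284, and 3790, and with only the groups compared 679, 493, 35, 235, and 576. Without single libraries they were 114 to 548, 137 to 383, 18 to 43, 58 to 100, and 114 to 430, and for MMACSF 48 h against 24 h 15 to 46, from 28. A minimum of 10 FPKM gave 831 and 779 in COLO858 at 24 h and 48 h. For 48 h against 24 h in COLO858, no minimum gave 86 and rescaling 281. For the difference between lines, from 505 at 24 h and 1017 at 48 h, the block gave 2396 and 3434, only the groups compared 173 and 649, and single libraries left out 212 to 399 and 558 to 896. At 24 h 0.1 FPKM added gave 336, and a minimum of 10 FPKM 275. The cause of these shifts was not tested. Read depth is unknown, so values below 1 FPKM, as for SOX9, TFAP2B, and FOXD3 in MMACSF, could not be given a counting error.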
